A study of Arabidopsis thaliana with 4 samples.

Results

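Expansins are small wall proteins of land plants, and the Arabidopsis thaliana superfamily was examined here in red-light-grown and dark-grown seedlings. The superfamily was picked with earlier results of these data known, but its members were taken by locus alone: 26 alpha-expansins (EXPA), 6 beta-expansins (EXPB), 3 expansin-like A genes (EXLA) and 1 expansin-like B gene (EXLB). Of these 36 loci, 35 had a value among the 27416 gene models of the files. EXPA19 (AT3G29365), a transcribed pseudogene in the TAIR10.1 annotation, was not analysed here. The study comprised 4 samples of Col-0 wild-type seedlings, 2 raised under red light (60 µmol of photons, per square metre and second) and 2 in darkness. All seeds lay on 1/2 MS medium with 1% sucrose, were kept there for 4 days of chilling at 4 °C, and received white light for 12 h. Seedlings then spent 4 days in either condition, for a labelled growth time of 4.5 days, and poly(A) RNA was sequenced. The labels name the tissue only as seedling, so no value can be assigned to root, hypocotyl or cotyledons. In such bulk samples fewer cells of a type and less RNA per cell cannot be told apart.

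Expansins loosen the cell wall without cutting it: at acid pH they disrupt contacts between cellulose and matrix polysaccharides, which lets a turgid cell extend. Proton pumps of the plasma membrane supply the acid, a mechanism known as acid growth. A seedling in darkness elongates its hypocotyl and keeps its cotyledons closed, whereas one in red light restrains the hypocotyl and expands the cotyledons. Alpha-expansins are the members for which wall loosening is best documented in Arabidopsis, and no wall-loosening activity is established for the expansin-like proteins.

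Each condition was deposited as 1 column of reads and 1 of RPKM, a read density corrected for gene length and for library size, which serves to compare levels between genes. A column may pool both samples of its condition or hold only 1 of them (not given in the sources used here). Values therefore stand without replicate error, and no test between conditions was made. Depth was 33521717 reads in red light and 41106535 in darkness. Intervals in brackets are exact 95% intervals of the RPKM ratio and cover counting error only. A call required red light and darkness to differ at least 2-fold on RPKM + 1, with 10 RPKM or more in the higher condition. Over all 12625 genes that reached 10 RPKM, 8.69% were called higher and 5.35% lower (14.0% in either direction), with a median log2 change of -0.11 on RPKM + 1.

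The expansin genes split by member. Of the 18 that reached 10 RPKM, 5 were called higher in red light (27.8%), 3 lower (16.7%) and 10 neither, with a median log2 change of -0.07. The 5 that rose were EXPA1, EXPA10, EXPB3, EXPA5 and EXPA6, and the 3 that fell were EXPA9, EXPA11 and EXPA4. All 8 counting intervals lay beyond 2-fold. EXPA5 reached 10 RPKM in red light alone, so its place among the 18 depended on its being high there. The called member nearest to the threshold was EXPA4, with a log2 change of -1.12, and the nearest outside it was EXLB1, at -0.72. At a 4-fold threshold EXPA1 and EXPA10 were called higher (2 of 18) and EXPA9 lower (1 of 18), against 3.15% and 0.982% of all genes. At a 1.5-fold threshold 5 were called higher and 5 lower, against 15.1% and 15.3% of all genes.

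**Figure D1:**
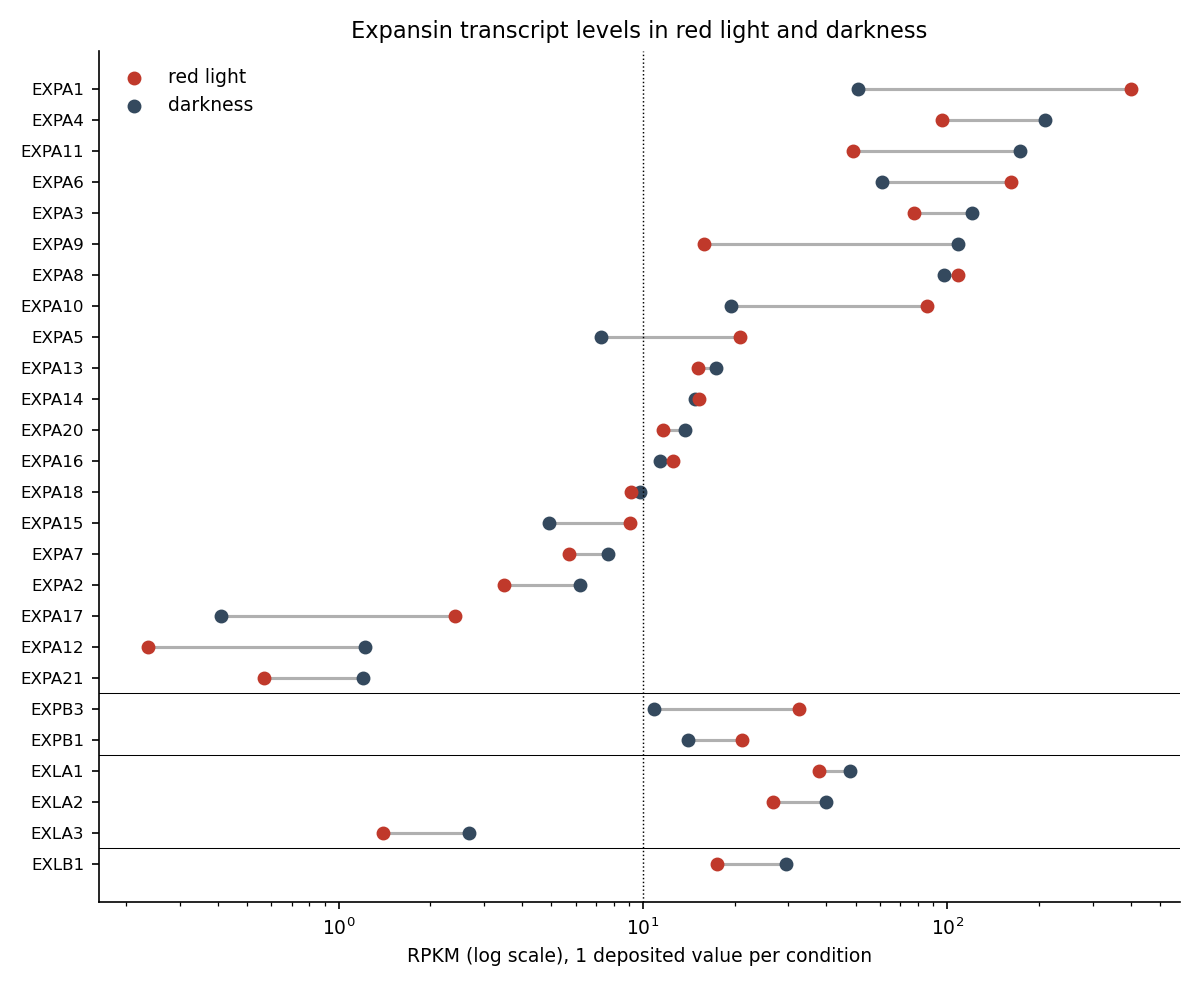
RPKM of the 26 expansins that reached 1 RPKM in either condition, on a log axis, in red light (red points) and darkness (dark points), with the 10 RPKM minimum as a dotted line and horizontal lines between alpha-expansins, beta-expansins, EXLA and EXLB genes. EXPA1 stood at 399.9 RPKM in red light and 50.7 RPKM in darkness, and EXPA9 at 15.9 RPKM in red light and 109 RPKM in darkness.

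The transcript pool changed its leading members. In red light the most abundant were EXPA1, EXPA6 and EXPA8, which made up 54.2% of the summed expansin RPKM. In darkness they were EXPA4, EXPA11 and EXPA3, at 46.5% of the sum, so no gene was among the leading 3 in both conditions. The leading 5 did overlap, since EXPA4 and EXPA8 were among them in both conditions. EXPA8 held 8.74% of the sum in red light and 8.99% in darkness. EXPA1 alone held 32.3% of the sum in red light and 4.69% in darkness. EXPA4 held 7.74% in red light and 19.4% in darkness. The pool as a whole differed less than any of the 8 called members, with 1237 RPKM in red light and 1081 RPKM in darkness, a ratio of 1.14. Without EXPA1 the direction turned: the remaining 34 genes summed to 836.6 RPKM in red light and 1030 RPKM in darkness, a ratio of 0.812. All expansin reads together were 0.0981% of the total in red light and 0.0841% in darkness.

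**Figure D2:**
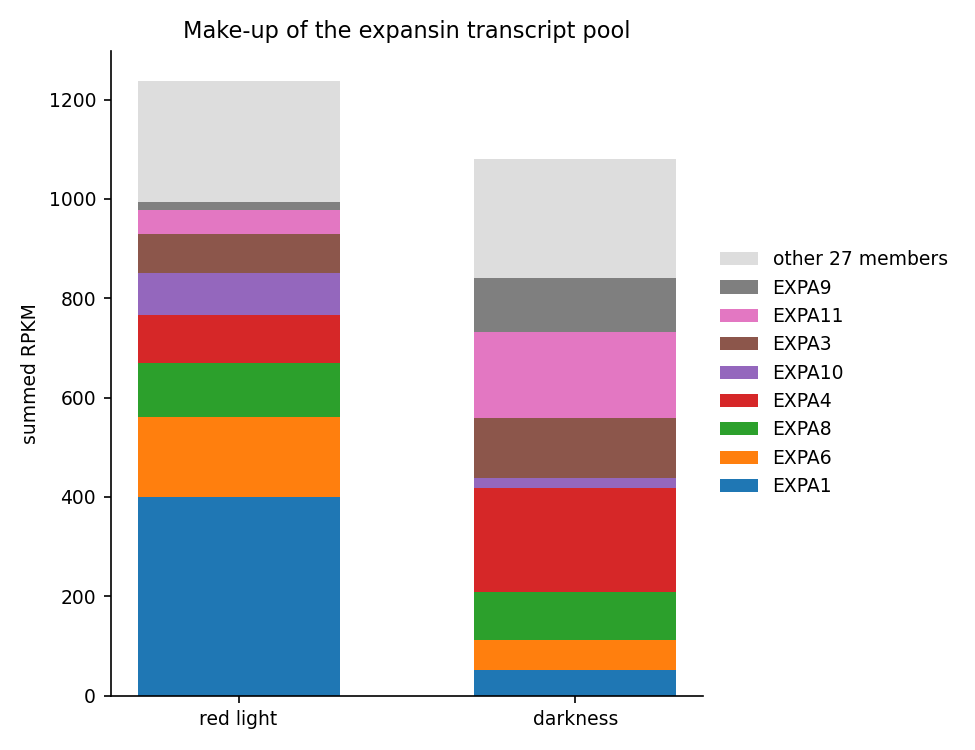
Summed RPKM of the 35 measured expansins in red light (left bar) and darkness (right bar), divided by member, with the 27 genes under 5% of the sum in both conditions drawn together. The EXPA1 segment is the largest in red light (32.3%), and the EXPA4 segment is the largest in darkness (19.4%).

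Among the alpha-expansins that rose, EXPA1 (AT1G69530), known for a part in stomatal opening, lay on chromosome 1 of TAIR10.1 from 26141726 to 26143538 on the plus strand. It had 11100 reads in red light and 1726 in darkness, or 399.9 and 50.7 RPKM, a ratio of 7.89 (7.50 to 8.30). Its log2 change of 2.95 stood at percentile 98.9 of the genes of at least 10 RPKM. EXPA10 (AT1G26770), known for promoting leaf and petiole growth, lay on chromosome 1 from 9259432 to 9261313, also on the plus strand. It had 2236 reads in red light and 625 in darkness, or 85.5 and 19.5 RPKM, a ratio of 4.39 (4.01 to 4.80). These were the 2 largest rises in the superfamily among genes of at least 10 RPKM.

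The coding sequences of EXPA1 and EXPA10 were 79.2% identical, the closest relation of either gene within the superfamily. Only 0.251% of the 31-base coding words of EXPA1 and 0.667% of those of EXPA10 occurred in another gene, so few reads of that length could be assigned to the wrong copy. Their promoters are shown because these genes rose most among expansins of at least 10 RPKM and are each other's closest relative. The windows shown are the 250 bases before the annotated gene start in RefSeq TAIR10.1, 5′ to 3′ on the gene's strand, and capitals mark CATGTG in either orientation. That sequence, the PBE-box, and the G-box CACGTG are the sites to which phytochrome-interacting factors (PIFs) are known to bind. EXPA11 and EXPA9, the 2 largest falls among expansins of at least 10 RPKM, are shown for comparison.
EXPA1, chr1:26141476-26141725, plus strand: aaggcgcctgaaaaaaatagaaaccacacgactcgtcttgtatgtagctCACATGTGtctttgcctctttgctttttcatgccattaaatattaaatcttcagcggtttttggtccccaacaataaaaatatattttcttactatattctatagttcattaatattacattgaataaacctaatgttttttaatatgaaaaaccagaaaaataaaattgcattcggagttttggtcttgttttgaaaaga
EXPA10, chr1:9259182-9259431, plus strand: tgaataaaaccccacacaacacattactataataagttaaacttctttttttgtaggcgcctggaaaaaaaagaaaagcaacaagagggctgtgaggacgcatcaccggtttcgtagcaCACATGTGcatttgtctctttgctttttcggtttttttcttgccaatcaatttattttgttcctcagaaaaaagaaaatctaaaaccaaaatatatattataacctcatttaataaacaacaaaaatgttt
EXPA11, chr1:6999840-7000089, minus strand: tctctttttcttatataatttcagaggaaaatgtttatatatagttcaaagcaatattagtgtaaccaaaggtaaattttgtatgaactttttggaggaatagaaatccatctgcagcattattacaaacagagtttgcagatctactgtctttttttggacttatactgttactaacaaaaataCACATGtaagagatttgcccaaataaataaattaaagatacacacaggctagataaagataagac
EXPA9, chr5:462823-463072, plus strand: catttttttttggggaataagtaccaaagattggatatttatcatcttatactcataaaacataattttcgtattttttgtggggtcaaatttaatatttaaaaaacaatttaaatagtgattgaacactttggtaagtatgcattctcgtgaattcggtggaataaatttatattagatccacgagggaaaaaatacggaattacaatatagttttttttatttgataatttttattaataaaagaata

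EXPA1 and EXPA10 carried the same 8-base palindrome, CACATGTG, in which CATGTG on one strand overlaps CATGTG on the other. It began 201 bases before the start of EXPA1 and 131 bases before that of EXPA10. The letters that follow it were also shared, and in the next lines capitals mark the bases that both genes have.
EXPA1, chr1:26141525-26141553, plus strand: CACATGTGtcTTTGcCTCTTTGCTTTTTC
EXPA10, chr1:9259301-9259329, plus strand: CACATGTGcaTTTGtCTCTTTGCTTTTTC
Of these 29 bases 26 were identical, with no gap. The palindrome stood in 0.382% of 26719 promoter windows of the same length (102 windows), and EXPA1 and EXPA10 were the only expansins among them. The run CTCTTTGCTTTTTC at the end of the block, searched on both strands, occurred in the EXPA1 and EXPA10 windows and in no other. A further shared word, GGCGCCTG, upstream of the palindrome in both, stood in 7 of the 26719 windows. These words were chosen after the promoters had been read, and the match describes the sequence without showing that a factor binds there. Of the 102 genes with the palindrome, 49 reached 10 RPKM, of which 6 were called higher (12.2%) and 4 lower (8.16%), against 8.69% and 5.35% of all genes. EXPA1 and EXPA10, from which the palindrome was taken, are counted among the 49 and the 6, so the share called higher is not independent of their choice.

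Over the superfamily, CATGTG occurred in the 250-base window of 8 of 35 genes and the G-box in 1, EXPB2. Among all windows CATGTG occurred in 11.2% and the G-box in 6.58%. Of the 5 genes that rose, EXPA1 and EXPA10 had CATGTG. Of the 3 that fell, EXPA11 had it, in the minus orientation 65 bases before the start. The 4 other windows with CATGTG belonged to EXPA2, EXPA12, EXPA17 and EXPA25, which stayed below 10 RPKM, and 1 more to EXPA13, which was not called. In 1000-base windows CATGTG was found for 19 of 35 expansins and for 37.8% of all genes. EXPA4, EXPA5, EXPA6 and EXPA9, all of them called, had neither word in 1000 bases.

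The remaining rises were smaller. EXPA6 (AT2G28950) had 161.9 RPKM in red light and 61.2 RPKM in darkness, a ratio of 2.65 (2.51 to 2.79), and was second in the family in red light. EXPA5 (AT3G29030), a brassinosteroid-responsive growth gene, had 20.9 RPKM in red light and 7.25 RPKM in darkness, a ratio of 2.88 (2.46 to 3.37). EXPB3 (AT4G28250) was the one beta-expansin called, with 32.4 RPKM in red light and 10.9 RPKM in darkness and a ratio of 2.98 (2.63 to 3.38). Its closest relative EXPB1, 78.4% identical in coding sequence, was at 21.2 RPKM in red light and 14.04 RPKM in darkness, a ratio of 1.51 (1.34 to 1.71), and was not called. Those were the only 2 beta-expansins above 10 RPKM.

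EXPA9 (AT5G02260) showed the steepest fall. It had 413 reads in red light and 3468 in darkness, or 15.9 and 108.6 RPKM, 6.85-fold lower (6.18 to 7.60), at percentile 0.42 of the changes of all genes of at least 10 RPKM. EXPA11 (AT1G20190) fell to 48.9 RPKM in red light, against 172.9 RPKM in darkness, 3.54-fold lower (3.33 to 3.77). EXPA4 (AT2G39700), the most abundant expansin of the dark column, fell to 95.7 RPKM in red light, against 209.6 RPKM in darkness, 2.19-fold lower (2.09 to 2.30). All 3 remained above 10 RPKM in red light. EXPA3 (AT2G37640), 76.7% identical to EXPA9, was at 77.5 RPKM in red light and 120.4 RPKM in darkness, 1.55-fold lower (1.47 to 1.64) and not called.

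**Figure D3:**
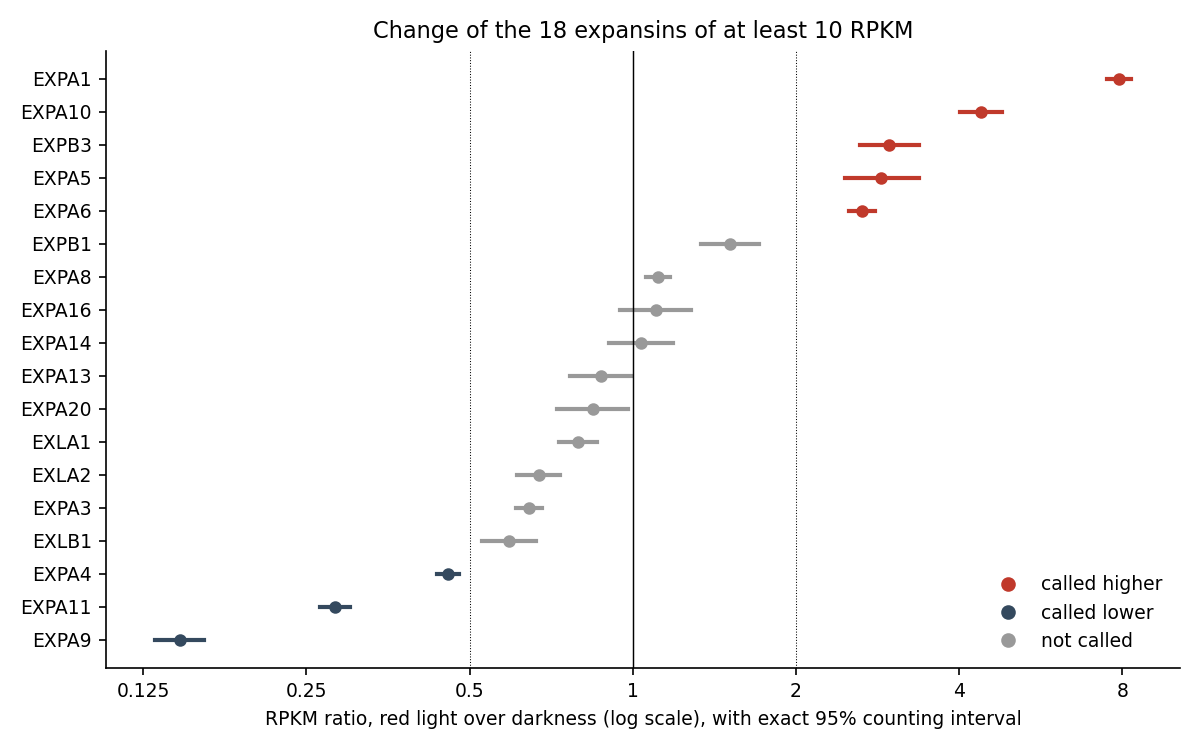
RPKM ratio of red light over darkness on a log axis for the 18 expansins of at least 10 RPKM, with exact 95% counting intervals as bars, ordered by ratio. Dotted lines mark ratios of 2 and 0.5, which the 5 genes called higher and the 3 called lower pass, from EXPA1 at 7.89 to EXPA9 at 0.146.

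Of the alpha-expansins that were not called, EXPA8 was the most abundant, at 108.1 RPKM in red light and 97.1 RPKM in darkness, a ratio of 1.11 (1.06 to 1.17). EXPA13 was at 15.2 RPKM in red light and 17.4 RPKM in darkness, and EXPA20 at 11.6 and 13.8 RPKM. All of the EXPA20 coding sequence (100%) lies within a long noncoding RNA annotated on the opposite strand. Its value is uncertain, since the counting may have ignored strand (not given in the sources used here). EXPA16 was at 12.5 RPKM in red light and 11.4 RPKM in darkness, with an interval of its ratio from 0.947 to 1.28. EXPA14, known from lateral root emergence, was at 15.3 RPKM in red light and 14.8 RPKM in darkness (0.904 to 1.19). For the last 2 genes no difference was detectable at this depth, although the intervals allow up to 1.28-fold.

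The expansin-like genes were all lower in red light, as were most genes of at least 10 RPKM (median log2 change -0.11). No expansin-like gene was called, and EXLA3 stayed below the minimum for a call. EXLA1 had 37.8 RPKM in red light and 47.7 RPKM in darkness, a ratio of 0.794 (0.732 to 0.859). EXLA2, known from responses to the fungus Botrytis, had 26.8 RPKM in red light and 39.9 RPKM in darkness, a ratio of 0.671 (0.612 to 0.736). EXLA3, next to EXLA1 on chromosome 3 with 1 annotated gene between them, had 1.39 RPKM in red light and 2.67 RPKM in darkness. Between 5.34% and 5.38% of the coding words of EXLA1 and EXLA3 were shared with another gene, and at 37 reads in red light and 87 in darkness the EXLA3 value may include reads of its neighbour. EXLB1 had 17.5 RPKM in red light and 29.6 RPKM in darkness, 1.69-fold lower (1.51 to 1.90). Summed, the 3 EXLA genes had 66.0 RPKM in red light and 90.3 RPKM in darkness, and the 6 beta-expansins 53.7 and 24.9 RPKM.

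Close relatives were called alike in some cases and differently in others. EXPA16, EXPA6, EXPA9 and EXPA3 were each at least 70% identical to EXPA4, and of these 5 genes 1 rose, 2 fell and 2 were not called. EXPA4 and EXPA6, 77.7% identical, were called in opposite directions, with log2 changes of -1.12 and 1.39 on RPKM + 1. EXPA6 and EXPA9, 74.3% identical, differed by 4.09 on the log2 scale. EXPA4 and EXPA16, at 81.1% the most alike of the alpha-expansins above 10 RPKM, differed by 1.25 in size. Around EXPA1, the genes of at least 70% identity were EXPA10, EXPA15, EXPA14, EXPA8 and EXPA5, with ratios of 4.39, 1.84, 1.04, 1.11 and 2.88. None of these was lower in red light. With EXPA1 they summed to 638.7 RPKM in red light and 194.2 RPKM in darkness, of which EXPA1 alone gave 399.9 and 50.7 RPKM.

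Over the 19 pairs of at least 70% identity with both genes above 10 RPKM, the median size of the difference in log2 change was 1.58. Over the 134 less alike pairs it was 1.35. The pairs share members and are not independent, so these medians are a description. The smallest difference among the more alike pairs was 0.23, between EXLA1 and EXLA2, which are 84.7% identical.

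**Figure D4:**
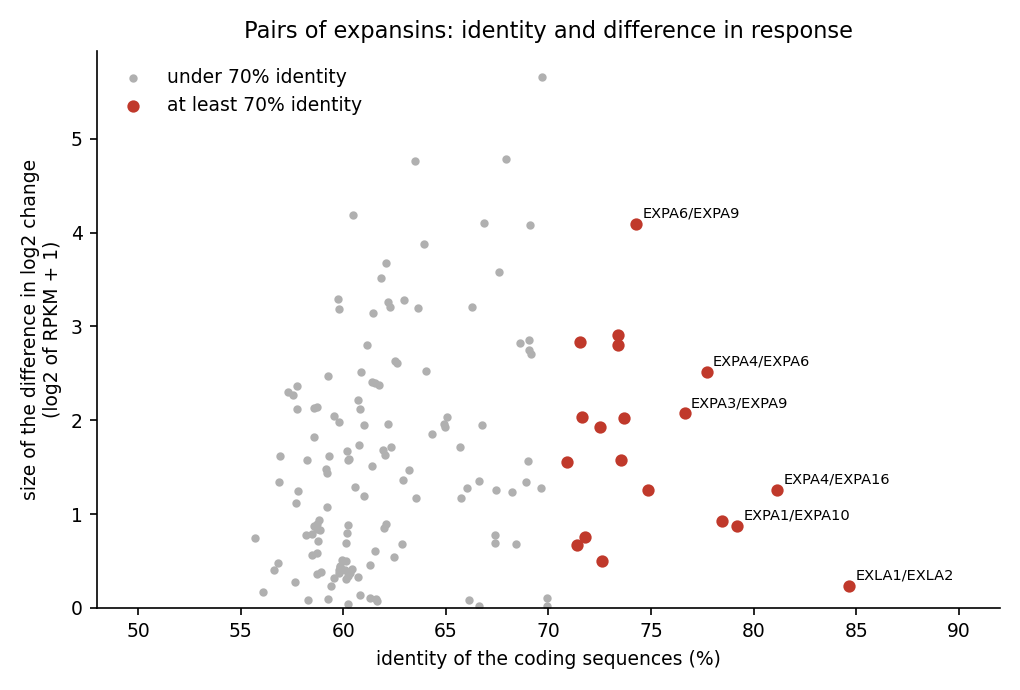
Each point is a pair of expansins that both reached 10 RPKM, with the identity of their coding sequences on the x axis (percent) and the size of the difference between their log2 changes on the y axis (log2 of RPKM + 1). The 19 pairs of at least 70% identity (red) run from a difference of 0.23 for EXLA1 and EXLA2 to 4.09 for EXPA6 and EXPA9.

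The root hair members stayed low. EXPA7 and EXPA18, the root hair expansins of Arabidopsis, are 75.4% identical. EXPA7 had 5.71 RPKM in red light and 7.65 RPKM in darkness, a ratio of 0.747 (0.606 to 0.918). EXPA18 had 9.10 RPKM in red light and 9.81 RPKM in darkness, a ratio of 0.928 (0.780 to 1.10). The 8 root hair markers RHD6, RSL2, RSL4, RHD2, COW1, PRP3, LRX1 and PRP1 summed to 53.6 RPKM in red light and 84.5 RPKM in darkness. Of them 7 were lower in red light, none was at 0, and RSL4 was at 2.76 RPKM in red light and 2.72 RPKM in darkness. The counting interval of the ratio included 1 for RHD6 (0.594 to 1.01) and RSL4 (0.732 to 1.40) and lay below 1 for the others. Only PRP3 reached 10 RPKM. Most genes of at least 10 RPKM were lower too, with a median log2 change of -0.11. Their part in the EXPA7 and EXPA18 values was not tested.

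EXPA17, a target of the lateral root regulator LBD18, had 62 reads in red light and 13 in darkness, or 2.41 and 0.412 RPKM, a ratio of 5.85 (3.18 to 11.6). It stayed below the minimum for a call. LBD16, LBD18, LBD29 and LBD33, which mark lateral root initiation, each stayed below the minimum and summed to 10.01 RPKM in red light and 13.2 RPKM in darkness. The counting interval of the ratio lay below 1 for LBD16 (0.603 to 0.918) and included 1 for the other 3. LBD18 itself was at 2.08 RPKM in red light and 2.47 RPKM in darkness. Beside EXPA1, known from guard cells, the 8 guard cell markers FAMA, MYB60, KAT1, KAT2, SLAC1, HT1, SCAP1 and GASA9 summed to 50.7 RPKM in red light and 39.6 RPKM in darkness. GASA9, at 14.4 RPKM in red light and 3.99 RPKM in darkness, was the only one of them called, and reached 10 RPKM in red light alone. Without GASA9 the sums were 36.3 RPKM in red light and 35.6 RPKM in darkness. MYB60, the most abundant, was at 17.2 RPKM in red light and 20.1 RPKM in darkness, FAMA at 2.92 and 3.09 RPKM, and SLAC1 at 0.161 and 0.218 RPKM. KAT1, KAT2, HT1 and SCAP1 were higher in red light, at 10.6, 1.25, 2.21 and 1.98 RPKM, against 8.18, 0.964, 1.34 and 1.74 RPKM in darkness. Apart from GASA9, the counting interval of the ratio lay above 1 for KAT1 (1.17 to 1.45) and HT1 (1.16 to 2.38). It lay below 1 for MYB60 (0.758 to 0.960) and included 1 for the others. The part of these markers in the EXPA1 result was not tested.

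The other low members were EXPA2, EXPA12, EXPA15 and EXPA21, together with genes at or near 0. EXPA2, known from the endosperm of germinating seeds, had 3.50 RPKM in red light and 6.21 RPKM in darkness, a ratio of 0.563 (0.434 to 0.726). EXPA15 was at 9.04 RPKM in red light and 4.92 RPKM in darkness. EXPA12 had 6 reads in red light and 38 in darkness, 5.17-fold lower (2.17 to 15.0). EXPA21 to EXPA26 lie in a row on chromosome 5 on the minus strand with no annotated gene between neighbours. EXPA21 had 15 reads in red light and 39 in darkness, and 76.3% of its coding sequence overlaps AT5G39250 on the opposite strand, which had 223 reads in red light and 289 in darkness. EXPA22 and EXPA26 had 0 reads in red light and 1 read each in darkness. EXPA23, EXPA24 and EXPA25 had 0 reads in both conditions. EXPA22 and EXPA26 are 97.7% identical and EXPA23 and EXPA25 97.5%, and between 53.7% and 67.3% of the 31-base coding words of these 4 genes occur in another gene, so reads from those stretches could not be assigned with certainty.

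Of the beta-expansins, EXPB4, EXPB5 and EXPB6 had 0 reads in both conditions, and EXPB2 had 2 reads in red light and 0 in darkness. A count of 0 allows up to 3 reads, which for the 35 genes corresponds to at most 0.133 RPKM in red light and 0.109 RPKM in darkness. EXPB2 and EXPB6 stand 201 bases apart on chromosome 1.

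The other families of wall loosening were compared by the same rule. Of 33 xyloglucan endotransglucosylase/hydrolase genes (XTH), which cut and rejoin xyloglucan chains, 22 reached 10 RPKM, of which 6 were called higher and 6 lower (27.3% each), against 8.69% and 5.35% of all genes. Their median log2 change was -0.37, against -0.07 for the expansins. The XTH sum was 3199 RPKM in red light and 7046 RPKM in darkness, a ratio of 0.454. Without XTH15 it was 3094 RPKM in red light and 3640 RPKM in darkness, a ratio of 0.850. XTH15, with the largest fall, and EXPA1, with the largest rise, were each left out after their values were seen. The sums without them therefore do not compare the 2 families. XTH6 rose to 13.7 RPKM in red light, against 0.830 RPKM in darkness, and XTH32 rose 8.03-fold. XTH7, XTH9, XTH16 and XTH22 rose between 2.38-fold and 3.50-fold. XTH15 fell to 105.0 RPKM in red light, against 3406 RPKM in darkness, 32.4-fold lower, and part of its coding sequence (27.7%) lies within an opposite gene. XTH5, XTH8, XTH19, XTH30 and XTH33 also fell. XTH30 had the smallest log2 change of these, -1.04, and its call was lost with TMM and with DESeq2 factors. XTH6 and XTH32 reached 10 RPKM in red light alone and XTH5 in darkness alone. Their places among the 22 thus depended on the condition in which they were high. The most abundant that were not called were XTH4, at 1102 RPKM in red light and 968.7 RPKM in darkness, and XTH24, at 509.8 and 854.4 RPKM.

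Plasma membrane proton pumps, which acidify the wall, were not called in either direction. All 4 of the 11 AHA genes that reached 10 RPKM were lower in red light (median log2 change -0.42). Most genes of at least 10 RPKM were lower too (median -0.11). Among these genes AHA2 stood at percentile 14.1, AHA1 at 16.0, AHA11 at 34.9 and AHA3 at 43.2. AHA2 was at 537.0 RPKM in red light and 821.4 RPKM in darkness, and AHA1 at 254.5 and 378.4 RPKM. Of the 9 clade D protein phosphatases 2C, which inactivate these pumps, 1 was called. That gene, PP2C-D1 (AT5G02760), fell to 33.0 RPKM in red light, against 79.8 RPKM in darkness, 2.42-fold lower. PP2C-D6 and PP2C-D2, the most abundant of the others in darkness, were at 137.1 and 60.3 RPKM in red light and at 149.7 and 119.1 RPKM in darkness. Over all genes of at least 10 RPKM, 14.0% were called in either direction. No call among 4 pumps and 1 among 9 phosphatases therefore sets neither family apart. No difference between these families and the expansins was tested.

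**Figure D5:**
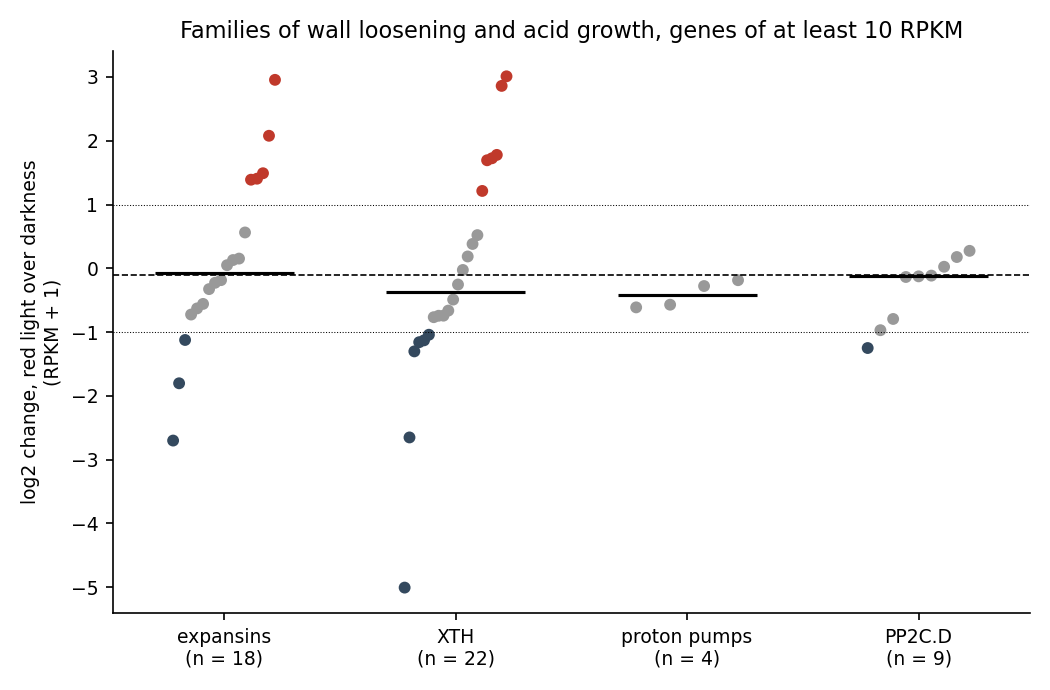
Log2 change on RPKM + 1, red light over darkness, for genes of at least 10 RPKM in 4 families, ordered within each family, with family medians as solid lines, the median of all genes (-0.11) as a dashed line and the limits for a call as dotted lines. Expansins and XTH genes spread beyond both limits, while all 4 proton pumps and 8 of the 9 phosphatases stay between them. Of all genes of at least 10 RPKM, 14.0% were called in either direction, so most genes stay between the limits.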

How the data were processed

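Per the labels, 4 seedling samples fell into 2 groups of 2, and the submitters' processing notes name the build as TAIR10. Per the file headers, the authors deposited reads and RPKM per gene model, 1 column of each per condition. The deposited estimated counts were whole except for 0.5 where no read was counted, set back to 0 here. No source used here names the aligner, the counting program or the strand setting. Implied gene lengths were multiples of 3 for 99.99% of models, so RPKM is per coding length.

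The test planned for replicated columns, edgeR's quasi-likelihood test, could not be used. Calls used the 2-fold rule on RPKM + 1 over the whole table. Ratios were taken on plain RPKM, while log2 changes carry the added 1, which shrinks them for low genes. The rule was checked on simulated data with counting error only and planted changes larger than the threshold, so that check covers neither replicate error nor changes near the threshold. Ratio intervals are Clopper-Pearson, and they cover counting error only, because each condition has 1 column. Reads are also not counts of single molecules, so the intervals may be too narrow even for that error. All expansins of at least 10 RPKM were named, and of the other families the called genes and up to 2 more of high RPKM. The superfamily and the other lists were chosen with earlier results of these data known.

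Positions, coding sequences and promoters came from RefSeq TAIR10.1, which held 26719 of the 27416 loci; 96.8% of coding lengths equalled those of the files. Pairs were aligned globally with Biopython 1.88. Python 3.11.15, R 4.3.3, edgeR 4.0.16 and DESeq2 1.42.0 were used for calls and scaling factors.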

Additional observations from a re-analysis of the deposited data

How the results depend on the processing

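No paired analysis was possible because the files give 1 column per condition, with no replicate number, and for that reason leaving out a replicate could not be done either. The 5 expansins called higher and the 3 called lower were the same genes with TMM factors, DESeq2 size factors, upper-quartile factors, a minimum of 5 or 20 RPKM, a pseudocount of 0.1, a rule that the entire counting interval pass 2-fold, and without members that overlap another gene or share long coding stretches. With no minimum EXPA17 was added, giving 6 higher. At a 4-fold threshold 2 expansins (EXPA1 and EXPA10) were higher and 1 (EXPA9) lower. At 1.5-fold 5 were higher and 5 lower, EXPA3 and EXLB1 being added. The median log2 change of the expansins, -0.07, was 0.0489 without the overlapping or near-identical members, since EXPA20 left the list. The ratio of summed RPKM lay between 1.14 and 1.20 with all members and between 0.812 and 0.852 without EXPA1, over 3 other scalings and without uncertain members. The alternatives for this ratio and for the other families were chosen after seeing the data. For the other families the 4-fold threshold gave 2 higher and 2 lower of 22 XTH genes and 0 lower of 9 phosphatases. The 1.5-fold threshold gave 10 lower of 22 XTH genes, 1 lower of 4 proton pumps and 3 lower of 9 phosphatases. Of all genes of at least 10 RPKM, 3.15% were higher and 0.982% lower at 4-fold, and 15.1% and 15.3% at 1.5-fold. XTH30 was no longer called with TMM or DESeq2 factors (5 lower), XTH6 at a minimum of 20 RPKM (5 higher) and XTH15 was left out as overlapping (5 lower), while XTH26 was added with no minimum (7 lower). The ratio of summed XTH RPKM, 0.454, was 0.850 without XTH15. Depth limits the members under 3 reads, for which neither a level nor a change can be given.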
